A study of Arabidopsis thaliana with 2 samples.

Results

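A CpApG site on one DNA strand faces a CpTpG site on the other, so that each such position holds 1 cytosine of each kind, offset by the middle base. All pairs of this kind on nuclear sequences were collected from the methylation calls of *ibm1-1* mutants, and a pair was kept when both of its cytosines had at least 8 reads. The choice used read numbers only, not methylation. The Col-0 library gave 603756 kept pairs of 2462753 (24.5%) and the Ler-0 library 500063 of 2576654 (19.4%). Each cytosine was placed in the class under 10%, from 10% to 50%, or over 50% methylation, where the methylation level is the share of reads that kept the cytosine through bisulfite treatment. A pair with 1 cytosine over 50% and the other under 10% is called one-sided below.

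The data are whole-genome bisulfite libraries from rosette leaves of *Arabidopsis thaliana* aged 3 weeks, grown on plates at 21°C in long days (16 h light and 8 h dark). Homozygous first-generation *ibm1-1* plants gave 1 library from the ecotype Col-0 and 1 from the ecotype Ler-0. The mutation was brought into Ler-0 from Col-0 by 4 backcrosses. Both libraries thus carry *ibm1-1*, and no wild-type plants were analysed here. With 1 library per ecotype, differences between the libraries have no replicate check and were not tested, and intervals (95%) cover counting error and the spread over pairs only.

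Non-CpG methylation in plants is kept by a loop in which the histone methyltransferase KYP marks H3K9 and the chromomethylase CMT3 reads this mark and methylates CpHpG sites (H is A, C or T). IBM1 removes H3K9 methylation from gene bodies, and in its absence many body-methylated genes acquire CpHpG methylation next to the CpG methylation that they normally carry. CpApG and CpTpG sites are symmetric CpHpG sites, at which a methylated cytosine on the old strand can guide methylation of the new strand after replication. Bisulfite reads of the 2 strands come from different molecules, so a comparison of the strands compares populations of molecules and does not show whether a single molecule carried both marks.

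The pairs that show the extremes of strand symmetry in Col-0 are printed here with 10 bases on each side (TAIR10 coordinates, 5′ to 3′ along the CpApG strand, the pair in capitals). The first 8 differed between the strands in a test of their reads described below, and the last 4 were chosen for equal and high methylation on both.
RKF2, chr1:6591519-6591541, plus strand: gggattcttcCAGtggcagaatc
AT4G29560, chr4:14505370-14505392, plus strand: tcacaggataCAGgaagccatgg
AT4G07932, chr4:4733103-4733125, minus strand: agtacgcccgCAGtatgcccgta
AT2G03965, chr2:1252164-1252186, plus strand: cagtttgggcCAGgcccaagagt
AT3G04450, chr3:1184501-1184523, minus strand: gacaccattgCAGaatccggaag
AT1G81020, chr1:30426995-30427017, plus strand: aagaattgcaCAGagtacaaagg
AT5G28335, chr5:10311218-10311240, plus strand: tcttctataaCAGgaatcggata
AT1G36305, chr1:13665392-13665414, minus strand: cacaccatcgCAGtcccacagga
PUM5, chr3:7061678-7061700, plus strand: cttgaagcaaCAGaggatggagg
TOC159, chr4:1108586-1108608, minus strand: aagtgggttcCAGatatcggtat
AT5G52530, chr5:21318799-21318821, minus strand: cttcagcaggCAGacggtctaca
AT3G37820, chr3:14147721-14147743, minus strand: cttttggcaaCAGagagcggcat

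Methylation was mostly symmetric. In Col-0, 75.3% of the pairs had both cytosines in the same class, and in Ler-0 76.3%. Of the 176839 Col-0 pairs with a cytosine over 50%, the partner was also over 50% in 65.7% (65.5–65.9%), from 10% to 50% in 33.9% and under 10% in 684 pairs, or 0.387% (0.359–0.417%). In Ler-0 the partner was over 50% in 73.5% (73.4–73.7%) of 219194 such pairs, and 690 of them were one-sided (0.315%, 0.292–0.339%). The chloroplast genome, which is not methylated and so gives the background of failed conversion, had 2.35% methylated calls at its Col-0 pairs and 2.50% at its Ler-0 pairs. In 0 of 1904 Col-0 chloroplast pairs and 0 of 885 Ler-0 ones was a cytosine over 50%. This allows shares of up to 0.158% and 0.339% of all pairs. On that base, one-sided pairs were 0.113% of all kept nuclear pairs in Col-0 and 0.138% in Ler-0, below these limits. The chloroplast pairs were far deeper, with medians of 188 (Col-0) and 259.5 (Ler-0) reads, against 16 at the kept nuclear pairs of each library. The chloroplast counts therefore do not show how many one-sided pairs the background gives at nuclear depth.

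The symmetry held in protein-coding genes and in pseudogenes, although their levels differed. Of the 378166 Col-0 pairs in protein-coding genes, 51.1% were under 10% on both strands and 9.0% (33942 pairs) over 50% on both. Of the 149698 pairs in pseudogenes and transposable element genes, 5.43% were under 10% on both and 38.7% (57970 pairs) over 50% on both. The annotation used here has no gene type named transposable element gene, so that the second class consists of its pseudogenes. The remaining pairs lay in neither annotation (74558) or in both (1334). One-sided pairs were 403 of the 55398 pairs with a cytosine over 50% in protein-coding genes (0.727%, 0.660–0.802%), 154 of 85532 in pseudogenes (0.180%, 0.154–0.211%) and 125 of 35152 in neither (0.356%, 0.299–0.423%). These shares differed by more than counting error, but read depth differed too, with a median of 14 reads per cytosine in protein-coding genes and 22 in pseudogenes, and the part of depth in the difference is taken up below.

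**Figure D1:**
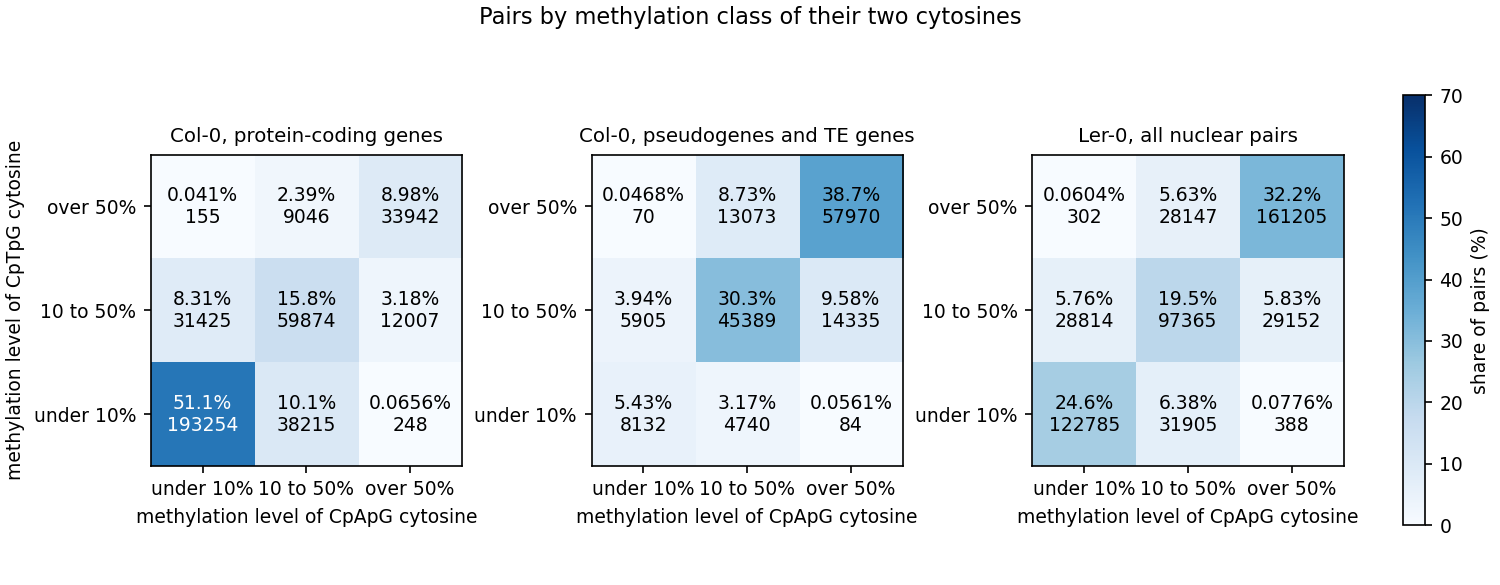
Share and number of pairs in each combination of classes, with the CpApG cytosine on the horizontal and the CpTpG cytosine on the vertical axis, for protein-coding genes and pseudogenes (with transposable element genes, TE genes) of Col-0 and all nuclear pairs of Ler-0. Pairs lie along the diagonal, and the corners with 1 cytosine over 50% and the other under 10% hold 248 and 155 pairs in protein-coding genes.

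The levels of the partners rose together over the whole range and not only between classes. Among pairs in protein-coding genes with at least 16 reads on each cytosine, the median CpTpG level was 22.5% where the CpApG level was from 20% to 30%, 61.5% where it was from 60% to 70% and 89.2% where it was at least 90%. In pseudogenes these medians were 28.9%, 62.9% and 84.6%, and in Ler-0 they were 28.6%, 65.4% and 89.3%. Pearson's r between the levels of the partners, as a description over pairs that share a library, was 0.879 over all kept pairs in protein-coding genes, 0.808 in pseudogenes and 0.898 in Ler-0. Intermediate methylation was thus shared by the strands as well. Pairs with both cytosines from 10% to 50% made up 15.8% of the pairs in protein-coding genes, 30.3% in pseudogenes and 19.5% in Ler-0.

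**Figure D2:**
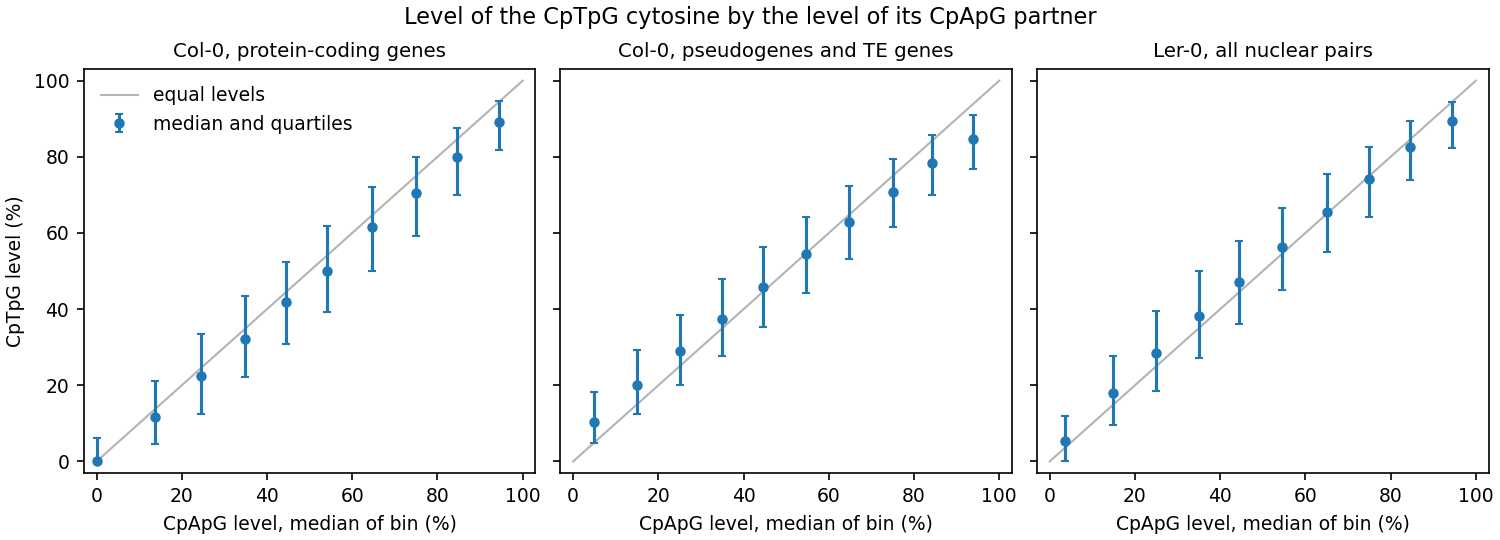
Median level of the CpTpG cytosine (points) with its quartiles (bars) in 10 bins of the level of its CpApG partner, for pairs with at least 16 reads on each cytosine. The points follow the line of equal levels, with medians of 22.5%, 61.5% and 89.2% in the bins from 20%, 60% and 90% in protein-coding genes.

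One-sided pairs were mostly pairs with few reads. In protein-coding genes their share of the pairs with a cytosine over 50% was 1.35% (1.20–1.52%) where the less covered cytosine had 8 to 11 reads, 0.769% with 12 to 15, 0.190% with 16 to 23 and 0.051% (0.020–0.131%, 4 of 7877 pairs) with 24 or more. In pseudogenes it went from 0.457% to 0.014% (3 of 21974 pairs), and in Ler-0 from 0.653% to 0.031% (12 of 38237). On this base the order of protein-coding genes above pseudogenes was kept in each range of depth. The intervals overlapped at 24 or more reads (0.005–0.040% in pseudogenes). Among the pairs with a cytosine over 50%, the share with both over 50% rose in parallel, from 53.6% to 75.4% in protein-coding genes and from 66.96% to 82.6% in Ler-0. Just below the limit, pairs with 7 reads on the less covered cytosine were one-sided in 1.54% of cases (Col-0) and 1.24% (Ler-0), and just above it, with 8 reads, in 0.877% and 0.709%. Levels at so few reads move in steps of whole reads, so the lowest level over 50% is not the same at 7 and 8 reads. Of all pairs with 7 and 8 reads, 8.97% and 9.06% were over 50% on both strands in Col-0, and 15.2% and 16.3% in Ler-0. The CpApG cytosine was the methylated one in 399 of the 684 one-sided Col-0 pairs (58.3%, 54.6–62.0%) and in 388 of the 690 Ler-0 pairs (56.2%, 52.5–59.9%).

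**Figure D3:**
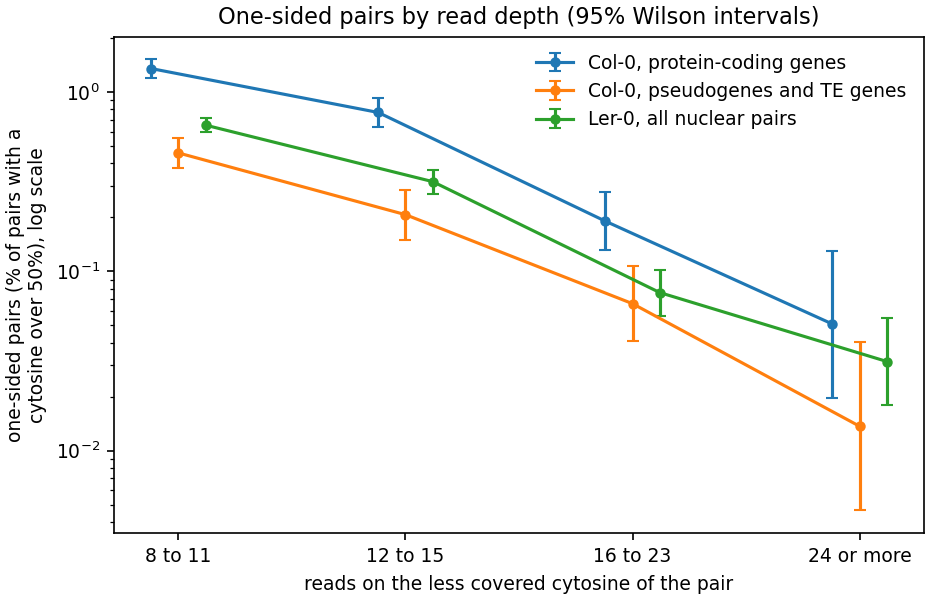
One-sided pairs as a share of the pairs with a cytosine over 50% (log scale) by the reads on the less covered cytosine, with 95% Wilson intervals, for protein-coding genes and pseudogenes of Col-0 and all pairs of Ler-0. All 3 series fall, from 1.35% to 0.051% in protein-coding genes.

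Counting error was then removed from the comparison by subtracting the binomial variance of the 2 levels from their squared difference. The root mean square difference between partners was 13.8 percentage points for Col-0 and 14.9 for Ler-0, of which 6.99 and 7.55 points remained. This remainder was 6.07 points in protein-coding genes and 8.14 in pseudogenes, and it moved with depth in opposite directions there. In protein-coding genes it was 5.74 points at 8 to 11 reads and 7.08 at 24 or more, and in pseudogenes 8.88 and 7.47. The 646673 Col-0 CpG pairs with the same read limit, where the partner cytosines are adjacent, had a remainder of 4.21 points and the 509721 of Ler-0 one of 4.15. In CpG pairs with a cytosine over 50%, both were over 50% in 98.2% (Col-0) and 98.5% (Ler-0), and 0.028% (0.023–0.034%) and 0.041% (0.035–0.049%) were one-sided. The shares also depend on how near the levels lie to the class limits, where counting error moves pairs between classes. Near Col-0 CpApG and CpTpG pairs over 50% on both strands, the median level was 51.5% at CpHpG and 89.5% at CpG cytosines. By these measures, with level and depth not matched, partners at CpApG and CpTpG sites differed more than partners at CpG sites in each of the 2 libraries. This difference was not tested over samples. The count of single pairs that passed the strand test described next went the other way, with 794 CpG pairs in Col-0 (0.123%) and 178 in Ler-0 (0.0349%).

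Single pairs were tested with Fisher's exact test (two-sided) on their methylated and unmethylated reads, with Benjamini-Hochberg adjustment over all kept pairs of the library. At an adjusted p below 0.05, 218 of the Col-0 pairs differed between the strands, which is 0.0361% of the pairs tested, and 69 of the Ler-0 pairs (0.0138%). Without adjustment, 3.79% and 4.20% had a p below 0.05. The test compares reads of 1 library, and reads over 1 site were treated as independent. Of the 684 one-sided Col-0 pairs 16 passed it, and of the 690 one-sided Ler-0 pairs 18, and the median of the less covered cytosine was 11 reads in the one-sided Col-0 pairs and 10 in the Ler-0 ones.

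Most of the pairs that passed were very deeply covered. Of the 218 in Col-0, 180 had more than 48 reads (3 times the median) on a strand, against 39575 of all 603756 kept pairs. In neither annotation lay 148 of the 218, against 74558 of all kept pairs. Another such pair was within 1000 bp for 129, and 39 lay on chromosome 3 between 14200001 and 14300000, at a mean of 1082 reads. Differences among the 218 went down to 3.79 points. The chloroplast pairs of Col-0 had a median of 188 reads and no cytosine over 50%. Of these 1904 pairs, 222 passed Fisher's exact test with adjustment over the chloroplast pairs alone. That adjustment was not the nuclear one, so this count cannot be set beside the nuclear counts. It shows only that at such depth the test also called differences in DNA without methylation. When the deep pairs were left out before the adjustment, 7 Col-0 pairs and 10 Ler-0 pairs passed. Of the original calls, the 38 Col-0 pairs within the depth limit differed by 42.4 to 100 points (median 64.0), with the CpApG cytosine higher in 29, against 87 of the 180 deep pairs and 116 of all 218 (53.2%, 46.6–59.7%). Of the 38, 14 were in protein-coding genes and 14 in pseudogenes, against 378166 and 149698 of all kept pairs. A unique sequence, that is 1 found once in the genome over 50 bases on each side of the middle base, was present in 36 of them and in 98.0% of all kept Col-0 pairs. In Ler-0, 21 pairs were within the limit, with a median difference of 80.1 points and the CpApG cytosine higher in 13.

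In protein-coding genes the printed pair with the widest difference was in the coding sequence of *RKF2* (AT1G19090, a receptor-like kinase), where 42 of 46 reads were methylated at the CpApG cytosine (91.3%) and 0 of 36 at its partner (adjusted p = 9.14e-15, Fisher's exact test). CpHpG cytosines within 100 bp had 65.7% methylation, so the CpTpG cytosine was low in a methylated region. The other 44 kept pairs of the gene include 32 over 50% on both strands. In AT2G03965 (an uncharacterized protein), 22 of 39 reads were methylated at the CpApG and 2 of 33 at the CpTpG cytosine (adjusted p = 0.015, Fisher's exact test). In AT4G29560, annotated as a Fanconi anemia group E protein, the counts were 20 of 21 and 13 of 35 (adjusted p = 0.040), in AT4G07932 25 of 28 and 17 of 47 (adjusted p = 0.027), and in AT3G04450 (a Homeodomain-like protein) 37 of 55 and 10 of 43 (adjusted p = 0.048, Fisher's exact test). All 5 pairs were in coding sequence and higher on the CpApG strand, while over all strand-different pairs in protein-coding genes CpApG was higher in 21 of 35. Among the strand-different pairs in protein-coding genes, only these 5 (1 per gene) had 20 to 60 reads on each cytosine and a unique sequence.

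In pseudogenes, the pair in AT1G81020 had 18 of 20 methylated reads at the CpApG and 11 of 48 at the CpTpG cytosine (adjusted p = 0.0016), the pair in AT1G36305 22 of 23 and 11 of 31 (adjusted p = 0.016), and the pair in AT5G28335 18 of 23 and 3 of 22 (adjusted p = 0.049, Fisher's exact test). These 3 were higher on the CpApG strand, as were 19 of all 34 strand-different pairs in pseudogenes. The pairs chosen for symmetry had similar or more reads. The pair in *PUM5* (a Pumilio RNA-binding protein) had 54 of 58 and 54 of 60 methylated reads, and the pair in *TOC159* (a receptor for protein import into chloroplasts) 34 of 58 and 37 of 60. In AT5G52530 the counts were 34 of 59 and 33 of 59, and in the pseudogene AT3G37820 54 of 59 and 53 of 60. These 4 pairs were chosen for a small difference, so their equal levels are no finding.

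The CpApG cytosine was slightly more methylated than its partner in Col-0. Pooled over all reads the levels were 33.8% for CpApG and 32.4% for CpTpG, a difference of 1.32 points (1.28–1.36), which was positive on each of the 5 chromosomes, from 1.01 to 1.48, but fell to 0.22 points among pairs with at least 20 reads. When each pair counted equally, the mean difference was 0.72 points (0.69–0.76), with 0.90 points in protein-coding genes (0.86–0.94) and 0.26 in pseudogenes (0.18–0.35). In neither annotation it was 0.77 points, while pooled reads gave −0.09 there. In Ler-0 the pooled difference was 0.95 points and the mean over pairs 0.34 (0.30–0.38), but among pairs with at least 20 reads the mean in Ler-0 was −0.26 points (−0.35 to −0.17), the other way round, while in Col-0 it was 0.57 (0.49–0.66). The difference in Ler-0 thus had no direction that held across depths. In the unmethylated chloroplast, pooled reads also gave a higher CpApG level, 2.43% against 2.26% in Col-0 and 2.58% against 2.42% in Ler-0. The part of failed conversion in the nuclear difference was not tested. Between the plus and the minus strand of the chromosomes, the pooled difference in Col-0 was −0.34 points (−1.21 in neither annotation), and the plus strand was higher in 50.05% of the pairs whose levels differed, against 52.4% for CpApG.

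**Figure D4:**
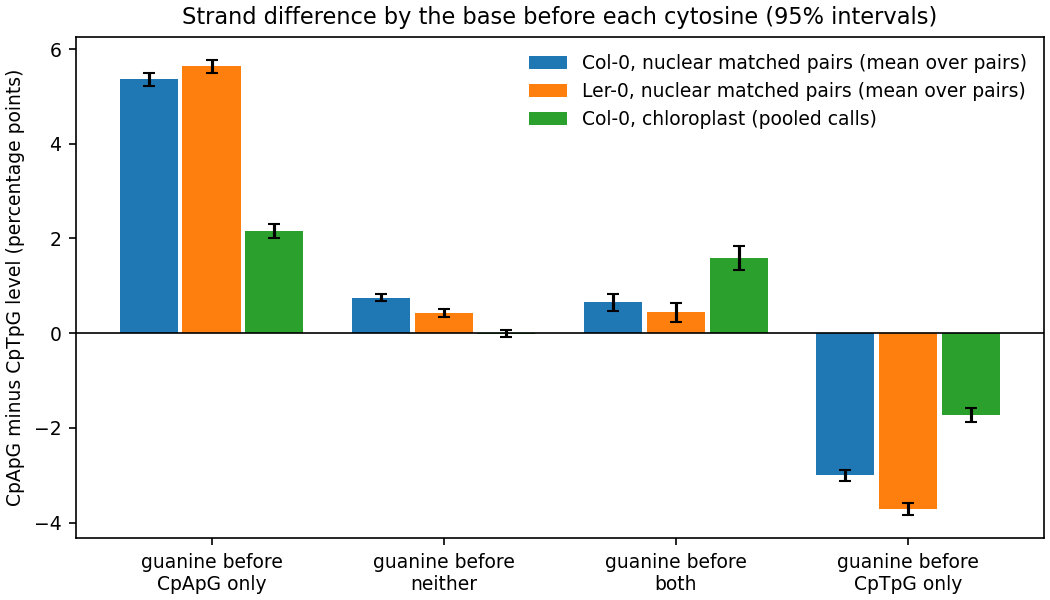
CpApG minus CpTpG level in percentage points by the base before each cytosine, for pairs found in both libraries (mean over pairs, with 95% intervals) and for the chloroplast of Col-0 (pooled reads). The bars are positive where only the CpApG cytosine follows a guanine (Col-0 5.37, Ler-0 5.64) and negative where only the CpTpG cytosine does (−3.002 and −3.72).

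A larger strand difference followed the base before the cytosine. In Col-0, where a G stood before the CpApG but not before the CpTpG cytosine (104756 pairs), CpApG was on average 5.08 points higher (4.99–5.17), and it was higher in 66.9% of the pairs that differed. Where a G stood before the CpTpG cytosine only (102615 pairs), the mean difference was −3.22 points (−3.30 to −3.15), and CpApG was higher in 36.6%. With a G before both (40432 pairs) or before neither (355953 pairs), the mean differences were 0.47 and 0.61 points. In each arrangement with a single G, the cytosine after G was thus the more methylated of the pair. The 2 arrangements were also unlike in level. With a G before CpTpG only, the pair means were 15.8% (CpApG) and 19.0% (CpTpG) and 6.39% of pairs were over 50% on both strands, while with a G before CpApG only they were 33.4% and 28.3%, and 22.4% were over 50% on both. Pairs with a G before both had 4.91% over 50% on both strands, and pairs with a G before neither had 23.6%. A G before the CpTpG cytosine therefore went with low methylation of both strands, in protein-coding genes (2.90% over 50% on both, against 10.8% with a G before neither) and in pseudogenes (12.7% against 48.5%).

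The same arrangement of differences was present in the Ler-0 library. It was compared over 214651 pairs kept in both libraries whose unique sequences were the same in both genomes (A and T not distinguished). In Ler-0 the mean difference was 5.64 points with a G before CpApG only (5.49–5.78) and −3.72 points with a G before CpTpG only (−3.85 to −3.58). With reads pooled, 14 of the 16 combinations of the bases on both sides of the pair had the same direction in both libraries. Among those that did not was CCAGG (read along the CpApG strand), with small differences of 0.04 points in Col-0 and −0.11 in Ler-0. At 20 or more reads in both libraries, the means over pairs with a G before CpApG only were 6.43 points in Col-0 and 5.96 in Ler-0. With a G before CpTpG only they were −4.93 and −6.34. The unmethylated chloroplast of Col-0 gave differences of the same direction at low levels, with 3.59% at CpApG and 1.42% at CpTpG where only CpApG followed a G, and 1.45% and 3.18% where only CpTpG did. The part of incomplete conversion in the nuclear differences was not tested.

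The strand of the gene gave no stable difference. In protein-coding genes, pooled reads gave 20.8% on the sense and 20.1% on the antisense strand, but the mean over pairs was −0.06 points (−0.10 to −0.02) in Col-0 and −0.04 points (−0.10 to 0.03) at the matched pairs in Ler-0, so the direction depended on how reads were weighted. The class of both cytosines over 50% was most frequent in the middle of genes, when each gene was cut into 5 equal parts from its 5′ end. It held 5.07%, 11.8%, 12.4%, 8.17% and 4.11% of the pairs from the first part to the last. It held 11.4% of intron, 8.77% of coding and 3.65% of other exon pairs. One-sided shares were 0.646% in introns (0.523–0.797%), 0.728% in coding sequence (0.650–0.816%) and 1.73% in other exon sequence (1.10–2.72%, 18 of 1038 pairs).

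One-sided pairs of protein-coding genes lay in less methylated surroundings than pairs over 50% on both strands. Within 100 bp, the other CpHpG cytosines had a median level of 22.3% (quartiles 10.97% and 36.1%) around one-sided pairs, 47.7% around pairs over 50% on both strands, 37.2% around pairs with 1 cytosine over 50% and the other from 10% to 50%, and 2.44% around pairs under 10% on both. For CpG cytosines these medians were 67.8%, 88.6%, 80.7% and 2.11%. Symmetric pairs with both cytosines from 10% to 50% were nearer to the one-sided pairs, with medians of 27.8% (CpHpG) and 73.6% (CpG). In pseudogenes the gap in CpHpG level was narrow, with 43.9% around one-sided pairs and 52.3% around pairs over 50% on both. One-sided pairs also had fewer reads, with a median of 13 per cytosine against 21 for pairs over 50% on both in protein-coding genes, and the part of depth in this difference was not tested.

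The matched pairs also show how far the state of a pair was shared between the ecotypes. Of the 32987 matched pairs over 50% on both strands in Col-0, 83.6% were so in Ler-0, and of the 85520 under 10% on both 66.7% were. Of the 220 one-sided pairs of Col-0, 4 were one-sided in Ler-0 (1.82%) and 53 were over 50% on both strands there. The other Col-0 classes were one-sided in Ler-0 in 0.042% to 0.240% of their pairs, and in all 283 of the 214651 matched pairs were. Among all matched pairs whose strands differed in both libraries, the same cytosine was the higher in 59.1% (58.8–59.3%), among the one-sided pairs of Col-0 in 160 of 218 (73.4%, 67.2–78.8%) and among those of Ler-0 in 200 of 264 (75.8%, 70.2–80.5%). Of the strand-different pairs 14 were matched in Col-0, and 12 of them had the same direction in Ler-0. Of those of Ler-0, 6 were matched, and all 6 had the same direction in Col-0. With so few matched calls, the 0 pairs that passed in both libraries say nothing on whether such pairs were shared. Where no G stood before either cytosine, 56.9% of matched pairs had the same direction.

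A stretch of the Ler-0 library was nearly without Ler-0 sequence. On chromosome 3 from 250001 to 9000000, which holds *IBM1*, 7.70% of the Ler-0 cytosines at positions with A or G in Col-0 had reads, against 84.1% outside. Without the pairs of this stretch, the same direction was found in 59.1% of 128257 pairs and in 142 of 192 one-sided pairs of Col-0 (74.0%). The printed pairs in AT3G04450 and *PUM5* lie in it. In Ler-0 the AT3G04450 pair had 37 of 50 methylated reads at the CpApG and 17 of 47 at the CpTpG cytosine, a difference in the same direction as in Col-0, while the AT4G29560 pair outside the stretch had 10 of 15 and 17 of 24, with the CpTpG cytosine slightly higher. The pair in *PUM5* had 40 of 47 and 27 of 35 and the pair in *TOC159* 21 of 44 and 21 of 41.

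At the level of genes the strands matched closely. Of 23379 protein-coding genes with a kept pair, 3921 had a pair over 50% on both strands, 386 a one-sided pair (at most 3 per gene) and 22 a strand-different pair. Among the 11283 genes with at least 10 pairs, the median of CpApG minus CpTpG was 0.87 points (quartiles −0.62 and 2.55), and r between the levels of the strands was 0.981 across genes, which are not independent replicates. In the 2753 pseudogenes with at least 10 pairs the median was 1.09 points (quartiles −0.95 and 3.31).

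The genes with the most pairs over 50% on both strands were long genes, and this choice by itself favours even strands. *BIG* (AT3G02260), needed for auxin transport, had 247 such pairs among 473 kept, with 59.97% methylation at CpApG (59.1–60.8%) and 59.7% at CpTpG (58.8–60.5%). *UPL1* (AT1G55860), a ubiquitin ligase, had 150 of 406, and here CpApG was higher (50.4%, 49.4–51.3%) than CpTpG (45.8%, 44.9–46.8%). AT1G48090, a lipid-binding family protein, had 111 of 376, *GCT* (a subunit of Mediator) 108 of 265 and *EIF4G* (a translation initiation factor) 102 of 183. In *SYD*, a SWI/SNF chromatin remodeller, the levels were 43.2% at CpApG and 42.7% at CpTpG, and in AT4G39420 (a spatacsin-like protein) 45.9% and 44.1%. AT5G07570, a glycine/proline-rich protein, had a cytosine over 50% in 107 of 114 pairs and the highest levels of the 8 genes, 78.9% and 77.8%. None of these 8 genes had a strand-different pair, against 22 of 23379 protein-coding genes and 0.0093% of their kept pairs, so this count does not set them apart. *UPL1* and *GCT* had 1 one-sided pair each. Outside *UPL1* the intervals of the 2 strands overlapped in each of them.

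**Figure D5:**
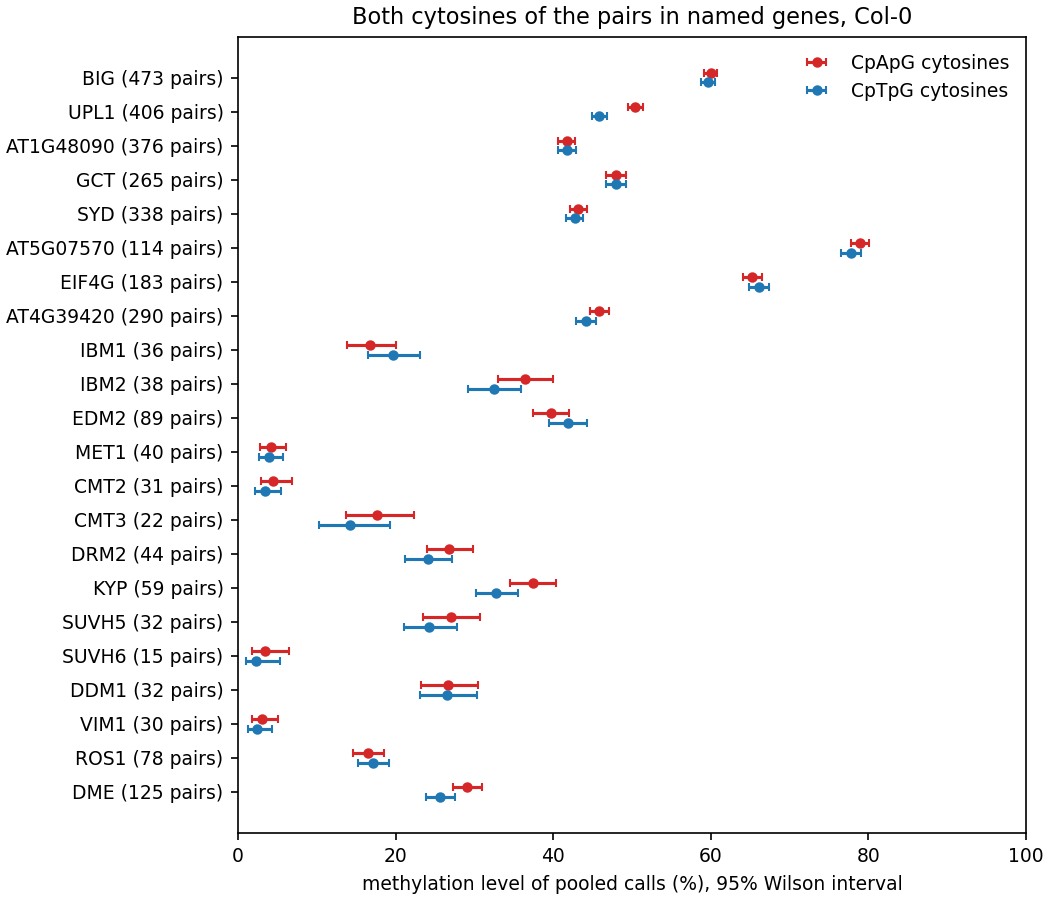
Methylation level (%) of the CpApG and the CpTpG cytosines in the 8 protein-coding genes with the most pairs over 50% on both strands and in 14 silencing genes of Col-0, as pooled reads with 95% Wilson intervals. The strands lie close together in each gene, from about 3% in *VIM1* (3.01% and 2.35%) to 78.9% and 77.8% in AT5G07570.

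Genes of the silencing machinery varied widely in level. The mutated gene, *IBM1* (AT3G07610), had 36 kept of 198 pairs, 1 of them over 50% on both strands, with 16.7% at CpApG (13.9–20.04%) and 19.6% at CpTpG (16.5–23.1%). These reads do not test the mutation. *EDM2* and *IBM2* (AT5G11470), both needed for full-length *IBM1* transcripts, had 24 of 89 and 9 of 38 pairs over 50% on both, with 39.7% and 41.9% (CpApG and CpTpG) in *EDM2* and 36.4% and 32.5% in *IBM2*. Of the DNA methyltransferases, *MET1* (CpG maintenance) and *CMT2* (CpHpH) had no pair with a cytosine over 50% among 40 and 31, *CMT3* (CpHpG) had 3 of 22 with such a cytosine but none over 50% on both strands, and *DRM2* (RNA-directed methylation) had 7 of 44 over 50% on both.

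Of the H3K9 methyltransferases, *KYP* (listed as *SUVH4*) had 9 of 59 pairs over 50% on both strands and 1 one-sided pair, with 5 of 8 and 1 of 14 methylated reads (p = 0.011 unadjusted and 0.995 adjusted, Fisher's exact test). *SUVH5* had 2 of 32 and *SUVH6* had none of 15. *DDM1* (listed as *CHR1*), a chromatin remodeller, had 3 of 32, and *VIM1*, which binds methylated CpG, had none of 30. The DNA demethylases *ROS1* (listed as *DML1*) and *DME* had 8 of 78 and 13 of 125, and *ROS1* had 1 one-sided pair with 7 of 13 and 0 of 11 methylated reads. Not one of the 14 genes had a strand-different pair, against 22 of 23379 protein-coding genes, so this count does not set the list apart.

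Only 4 protein-coding genes had more than 1 strand-different pair, and all 4 were deeply covered. AT2G01008 and AT3G41762 had 5 such pairs each, at means of 521 and 1447 reads per cytosine over their kept pairs and with differences from 4.03 to 25.3 points. Only 1 of the 5 pairs in each lay in a unique sequence. AT2G08986 (mean 237 reads) had 4, all in unique sequence and with differences from 36.6 to 56.0 points, such as 417 of 508 methylated reads at the CpApG and 236 of 905 at the CpTpG cytosine, and AT1G40104 (mean 203 reads) had 3. The other 18 genes had 1 each, and 6 of them were taken by their number of one-sided pairs and then by gene identifier. In *GN* (the GNOM vesicle-trafficking factor), 0 of 38 reads were methylated at the CpApG and 6 of 9 at the CpTpG cytosine (adjusted p = 0.026, Fisher's exact test), in AT3G55020 0 of 13 and 8 of 8 (adjusted p = 0.018), in *ATX2* (a trithorax-like histone methyltransferase) 15 of 15 and 7 of 28 (adjusted p = 0.0065), and in AT2G17930 (a kinase family protein) 11 of 11 and 2 of 16 (adjusted p = 0.021). *GN* had 30 of 114 kept pairs over 50% on both strands and a median difference between partners of 9.09 points.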

How the data were processed

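Libraries were built from 150 ng of genomic DNA after bisulfite treatment. The authors aligned paired reads with Bismark, to TAIR10 for Col-0 and to a Ler-0 assembly, collapsed duplicated reads, and deposited raw counts of methylated and unmethylated calls for each cytosine of both strands, with no normalization. The submitters' processing notes also name Trimmomatic, and no source used here gives a version. The reports held 371653818 calls in Col-0 (mean 8.63 per cytosine) and 313387873 in Ler-0 (mean 6.58). A site where the plants carry a T in place of the reference cytosine would be counted as unmethylated, and strict read minimums favour methylated, well-covered regions: kept Col-0 pairs were 33.1% methylated, all pairs 22.7%.

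The C and G positions of the Col-0 report equal those of the RefSeq TAIR10.1 nuclear chromosomes and chloroplast, from which sequences and genes were taken. The Ler-0 sequence was rebuilt from its report with A and T as 1 letter, and pairs were matched by windows of 50 bases on each side of the middle base that occur once in each genome. Contigs that match organelles were left out. The stretch of chromosome 3 was mapped in windows of 250000 bases from cytosines at which Col-0 has A or G. A gene pair lies within the annotated limits of a gene, UTRs and introns included. Levels around a pair needed at least 10 calls within 100 bp.

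Intervals are 95% Wilson intervals of shares, or normal intervals of means over pairs. Neighbouring pairs share reads, so the intervals are too narrow for differences between plants. Fisher's exact test and the variance subtraction were tested on simulated data. Named genes were the 10 protein-coding genes with the most strand-different pairs (ties by one-sided pairs, then by identifier), the 8 with the most pairs over 50% on both strands and 14 silencing genes. Printed pairs had 20 to 60 reads on each cytosine and a unique window, 1 per gene, with the widest difference or, over 50% on both, at most 5 points and the most reads. Up to 6 strand-different pairs in protein-coding genes were to be printed and 5 qualified. Pairs and lists were chosen with earlier results of these data known. Python 3.11.15, numpy 2.4.6, pandas 2.3.3, scipy 1.17.1, numba 0.67.0 and matplotlib 3.10.9 were used.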

Additional observations from a re-analysis of the deposited data

Results flagged for a closer look

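The mitochondrial pairs were left out of the comparisons. In Col-0 they had 13.5% methylated calls (13.4–13.6%; 79393 of 587190 calls), against 2.35% in the chloroplast of the same library, and 30 of 3274 pairs had a cytosine over 50%, against 0 of 1904 in the chloroplast. In Ler-0 the mitochondrial pairs had 2.20% methylated calls, and 0 of 762 had a cytosine over 50%. The Ler-0 set came from 3 contigs with 2053 pairs before the read limit, against 9997 in Col-0. The libraries were thus not compared over the same extent of mitochondrial sequence.

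The mean of CpApG minus CpTpG at the 26579 matched pairs in pseudogenes was 0.34 points (0.15–0.53) in Col-0 and −0.51 points (−0.70 to −0.32) in Ler-0, opposite directions with a difference of −0.86 points (Ler-0 minus Col-0). With 1 library per ecotype the difference was not tested. In protein-coding genes the means were 1.02 and 0.85 points.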

How the results depend on the processing

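The one-sided share of Col-0 was 0.837%, 0.197% and 0.046% with at least 5, 12 and 20 reads, 1.10% and 0.183% with the high class over 40% and 60%, 0.159% and 1.75% with the low class under 5% and 20%, 0.623% after correction for non-conversion, 0.920% with each cytosine thinned to 8 reads, 0.440% without pairs over 3 times the median depth and 0.557% at pairs matched in Ler-0. In the same order of the first 9 settings, it was 1.504%, 0.379%, 0.0821%, 2.06%, 0.327%, 0.314%, 2.77%, 1.10% and 1.38% in protein-coding genes and 0.358%, 0.0874%, 0.0248%, 0.511%, 0.0920%, 0.0713%, 1.10%, 0.311% and 0.676% in pseudogenes (0.220% without deep pairs). As a share of the pairs with a cytosine in the high class, one-sided pairs were thus more frequent in protein-coding genes than in pseudogenes in each of these 9. In Ler-0 the one-sided share was 0.742%, 0.147%, 0.0457%, 0.854%, 0.145%, 0.126%, 1.35%, 0.505% and 0.626%, 0.349% without deep pairs, 0.467% at matched pairs and 0.465% at those outside the stretch of chromosome 3. Strand-different pairs of Col-0 numbered 350 with at least 20 reads, 7 without deep pairs, 145 with a difference of at least 20 points and 108 with Bonferroni adjustment, and those of Ler-0 107 (20 reads), 10 (no deep pairs) and 27 (Bonferroni). The remaining alternatives were chosen after seeing the data. Unique sequences gave 126 pairs in Col-0, and without deep pairs 6 in Col-0 and 9 in Ler-0. CpApG minus CpTpG in Col-0 was 0.72 points as the mean over pairs (0.72 with at least 12 reads and 0.57 with 20), and pooled 1.19 without deep pairs, 1.08 with at least 12 reads, 0.22 with 20 and 1.45 in unique sequences. In Ler-0 the mean over pairs was 0.34 points (0.13 with at least 12 reads), and pooled 0.69 without deep pairs, 0.66 with at least 12 reads and 0.16 with 20. It changed direction, to −0.26 points, in the mean over pairs with at least 20 reads. The same direction in both ecotypes was found in 56.9% where G stood before neither cytosine. The cause of these changes was not tested, apart from fewer pairs being tested at higher read limits. No paired analysis was possible because each ecotype had 1 library.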
